A study of Mus musculus with 26 samples.

Results

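Tail-tip fibroblasts were set against 2 adult tissues of endodermal origin, pancreatic islets and hepatocytes, across a mouse microRNA panel. The comparison holds 11 of the 26 samples of the series, 5 of fibroblasts, 3 of islets and 3 of hepatocytes, and all 315 assay positions. The groups were taken from the sample labels, with each tissue given the same weight and also set against the fibroblasts alone. The fibroblasts were derived from mouse tail tips and are the parent cells of the induced pluripotent stem cells (iPSC) of the same series. The islets and hepatocytes were primary preparations of adult C57BL/6 mice. No genotype, treatment, age in weeks or pooling is given for these 3 groups, nor a strain or passage for the fibroblasts, and the labels do not say whether samples came from separate animals or cultures. Every p-value below is thus set by sample-to-sample spread alone, whether biological or technical.

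MicroRNAs are short RNAs that are loaded into Argonaute proteins and pair with messenger RNAs through a seed near their 5′ end, which lowers the stability and translation of the target. Many are restricted to a lineage. Fibroblasts are mesenchymal cells, whereas hepatocytes and the endocrine cells of the islet arise from definitive endoderm, and both liver and islet are known for single microRNAs that reach very high levels there. An islet is a mixture of several endocrine cell types with vessels and other cells, so that fewer cells of a type and less RNA per cell cannot be told apart in these values.

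Stem-loop RT-qPCR was the assay: a hairpin primer that anneals to the mature microRNA primes the cDNA, and a TaqMan probe follows its amplification. The value is the threshold cycle (Ct), and a lower Ct means more RNA. The Ct table lists positions, a letter from A to D and a number, and pairs 0 of them with a microRNA name. Positions are therefore used as names below, no sequence is given, and the identity of the cells could not be checked against marker microRNAs. Relative expression is on a log2 scale, the mean Ct of a set of reference assays in the sample minus the Ct of the assay. The reference assays are the 122 that had a Ct below 35 in all 26 samples, averaged separately for positions A and B, C, and D. A Ct above 35 or an empty value was set to 35, the limit.

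The fibroblast samples varied more than those of either tissue. The mean Ct of the reference assays was 25.3, 26.6, 23.2, 25.8 and 29.8 cycles in fibroblast replicates 1 to 5. It was 25.1, 25.8 and 26.7 in the islet samples and 26.3, 27.2 and 27.6 in the hepatocyte samples. Fibroblast replicates 3 and 5 thus stood at the ends of the range, on either side of all tissue samples. Fibroblast replicate 5 had 187 assays below Ct 35, against 240 to 272 in the other fibroblast samples. Islets had 269.3 ± 3.21 such assays (SD, n = 3) and hepatocytes 215.3 ± 4.73 (SD, n = 3), and fibroblasts 237.8 ± 31.3 (SD, n = 5) lay between them. None of the differences between fibroblasts and tissues passed a two-sided exact permutation test, with p = 0.107 against islets, 0.357 against hepatocytes and 0.853 against both (0.321, 0.536 and 0.853 after Benjamini-Hochberg adjustment over the 3 tests). The smallest p that 5 against 3 samples allow is 0.0357. Over the 147 assays below 35 in all 11 samples, the median SD in fibroblasts fell from 2.57 cycles of raw Ct to 0.99 on the relative scale. In islets and hepatocytes the median relative SD was 0.80 and 0.79.

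**Figure D1:**
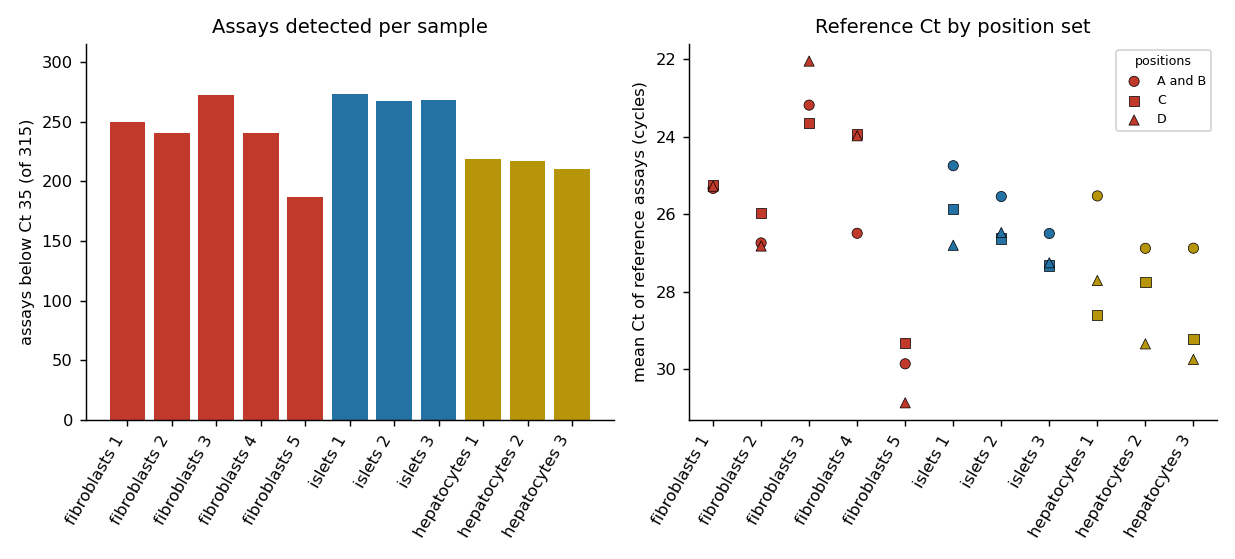
Left, the number of assays with a Ct below 35 in each of the 11 samples (bars, from 0 to the 315 positions). Right, the mean Ct of the reference assays of each position set in cycles, with the axis turned so that more RNA is higher; fibroblast replicates 3 and 5 lie at the ends, and hepatocytes have higher values for C and D than for A and B.

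Some values stood far from the rest of their group. A Ct more than 5 cycles below every other sample of its group was found 40 times in the 11 samples, 5 times in fibroblasts, 13 times in islets and 22 times in hepatocytes. Hepatocyte replicate 1 held 13 of them, 11 at positions with the letter A, and islet replicate 1 held 11. The lowest was a Ct of 2.74 at D08 in fibroblast replicate 4, where the other fibroblast samples had 22.3 to 30.5. Such a Ct can carry a group mean by itself. All such values were therefore also left out together, with the reference assays that hold one. Where this moved the called difference of a named assay by more than 1.5 times or ended its call, the resulting value is given. The D reference is the one most exposed to them: its 9 assays include D08, D16 and D24, the last 2 with a Ct of 15.3 each in fibroblast replicate 3. Conversely, 36 empty values came from groups whose other samples had a median Ct below 30, 17 of them in fibroblasts and 11 of these in replicate 5.

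**Figure D2:**
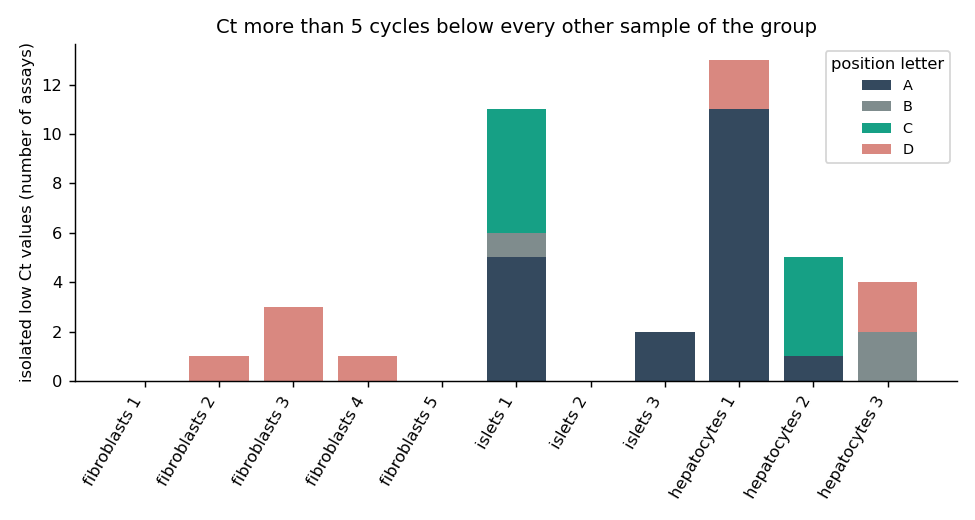
Number of assays in each sample whose Ct lies more than 5 cycles below every other sample of its group, stacked by position letter. Hepatocyte replicate 1 has 13, of which 11 are at A positions, islet replicate 1 has 11, and fibroblast replicates 1 and 5 and islet replicate 2 have 0.

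The first question was which microRNAs distinguish fibroblasts from endodermal tissue as a whole, with islets and hepatocytes weighted equally. Of 278 assays with a Ct below 35 in at least 50% of the samples of either side, 47 were called higher and 68 lower in fibroblasts (limma, Benjamini-Hochberg adjusted p under 0.05), which is 16.9% and 24.5% of those tested. Called rises had a median log2 difference of 3.21 and called falls one of -3.21. The median over all assays tested was -0.17. Differences larger than 4-fold made up 40 of the rises and 60 of the falls. Among the rises, 43 had a Ct below 35 in all 5 fibroblast samples. Among the falls, 48 had one in all 6 tissue samples, and in 38 at least 1 fibroblast sample was at the limit, so that the size of those falls depends on it. Leaving out the isolated low Ct values gave 53 rises and 76 falls, and leaving out fibroblast replicates 3 and 5 together gave 50 and 72. Under quantile normalization the counts were 64 and 58, and on raw Ct 46 and 42, so that the balance of rises and falls depends on the scaling. The count of falls was 30 among the 147 assays detected in every sample and 45 with the limit at 32.

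The 4 letters differed in this balance. At A positions 24 assays rose and 20 fell of 94 tested, at B 15 and 20 of 87, and at C 7 and 20 of 74. At D 1 rose and 8 fell of 23, with a median of -2.21 over the 23. Without the isolated low Ct values, and the reference assays that hold one, 5 D assays rose and 3 fell and their median was -0.86. With one reference for all letters 4 rose and 1 fell. The C positions turned further: with one reference 28 rose and 7 fell and their median went from -0.35 to 1.25, while A went to 19 rises and 27 falls and B to 12 and 29. Under quantile normalization 28 C assays rose and 6 fell, and on raw Ct 22 and 4. The balance at both C and D thus depends on the reference, and a C or D difference is relative to the reference assays of its own letter. D positions stay in the counts given here, with 8 of the 68 falls against both tissues, 5 of 69 against islets and 9 of 58 against hepatocytes.

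All 5 fibroblast samples lay above all 6 tissue samples at 22 assays, and below all of them at 20, with a Ct below 35 in every sample of the higher side. The share of all assays called in this comparison is 41.4%. All 22 were called, and 18 of the 20, all but A28 (limma adjusted p 0.0621) and C88 (0.390). The gap between the groups was 1.39 at the median of the 22 (0.06 to 8.95) and 0.97 at the median of the 20 (0.10 to 3.63). On raw Ct the counts were 6 and 9, and without fibroblast replicates 3 and 5 they were 31 and 36. Leaving out samples can only keep or raise such counts. Of the 22 separated assays that were higher in fibroblasts, 15 were at A positions, 5 at B, 2 at C and 0 at D. Of the 20 that were lower, 5 were at A, 7 at B, 7 at C and 1 at D. The run from A47 to A61, chosen after its values were seen, held 8 of the 22 among its 15 positions, and 0 of the 20. Of its 14 tested assays 8 were called higher and 2 lower, A57 among the latter at -4.52.

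Assay A61 showed the largest excess in fibroblasts. Its Ct was 23.7, 24.8, 19.99, 23.3 and 27.9 in the fibroblast samples and 33.1, 34.6 and 33.8 in islets, and no hepatocyte sample was below 35. Relative expression was 2.37 ± 0.75 in fibroblasts (SD, n = 5), -8.23 ± 0.84 in islets (SD, n = 3) and at the limit in hepatocytes. Even the lowest fibroblast sample stood 8.95 above the highest tissue sample. The log2 difference was 10.77 (SE 0.54, limma adjusted p 1.75e-12), or 1749-fold with the hepatocyte samples taken at the limit, where they give only a bound. The assay was also present in pluripotent cells, at a mean of -0.16 in the 5 iPSC samples and -0.19 in the 6 embryonic stem cell (ESC) samples, between fibroblasts and the tissues.

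The adjoining assay A60 followed the same order. It had a Ct of 25.1, 26.3, 21.6, 25.9 and 29.5 in fibroblasts, 32.3 and 34.4 in 2 islet samples, 37.7 in the third, and no Ct in hepatocytes. All fibroblast samples were above all tissue samples, by 7.81 or more on the relative scale. The log2 difference, with the samples above 35 at the limit, was 9.07 (SE 0.56, limma adjusted p 5.38e-11). In both assays the islets and hepatocytes did not separate, with differences between the tissues of 0.35 (adjusted p 0.750) for A61 and 0.28 (adjusted p 0.815) for A60 with the hepatocytes at the limit.

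Assays A55, A49, B36 and B60 were also higher in every fibroblast sample than in any tissue sample. A49 was abundant in fibroblasts, with a Ct of 19.3, 23.2, 16.7, 21.3 and 23.5, against 25.1, 24.3 and 27.0 in islets and 29.2, 29.1 and 29.5 in hepatocytes. The 3 groups formed steps without overlap, at relative levels of 5.53 ± 1.22 (SD, n = 5), 0.17 ± 0.97 (SD, n = 3) and -2.82 ± 0.75 (SD, n = 3). The log2 difference from both tissues together was 6.86 (SE 0.79, limma adjusted p 6.98e-07). For A55 it was 7.31 (SE 0.88), for B36 6.37 (SE 0.79) and for B60 6.34 (SE 0.97), with adjusted p of 1.30e-06, 1.91e-06 and 2.55e-05. These 3 assays were near the detection limit in hepatocytes, where 2, 1 and 1 of the 3 samples had a Ct below 35. In islets A55 was below 35 in 2 of the 3 samples, and B36 and B60 in all 3.

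A01 differed from both tissues by a smaller step, with an SD of 0.55 in fibroblasts, 0.54 in islets and 0.45 in hepatocytes on the relative scale. Its Ct was 20.8, 23.2, 19.4, 23.0 and 25.2 in fibroblasts, 24.4, 25.1 and 27.0 in islets, and 27.5, 28.0 and 28.7 in hepatocytes. On raw Ct fibroblast replicate 5 overlapped the islets, whereas on the relative scale all fibroblast samples, at 3.51 to 4.67, were above all tissue samples, the highest of which was at 0.46. The log2 difference was 4.81 (SE 1.03, limma adjusted p 0.000775). This SE is from the shared fit, which takes in the ESC samples, where A01 had an SD of 3.79 and was not below 35 in every sample.

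In the 3 other assays of the 10 largest rises, A14, A47 and A42, the excess came mainly from the hepatocytes. A47 had the smallest SD among fibroblasts of the assays below 35 in all 11 samples, 0.24, at a relative level of 1.26 (n = 5). Islets were at -0.23 ± 0.31 (SD, n = 3) and hepatocytes at -7.52 ± 1.56 (SD, n = 3). The fibroblast samples were above all islet samples, by 0.92 or more, but the difference of 1.496 was not called (SE 0.70, limma adjusted p 0.103), while that from hepatocytes was 8.78 (SE 0.70, adjusted p 3.55e-09). A14 differed by 2.39 from islets (SE 0.81, adjusted p 0.0237) and by 9.42 from hepatocytes (SE 0.80, adjusted p 6.09e-09). For A42 the values were 1.54 (SE 1.28, adjusted p 0.358) and 7.52 (SE 1.28, adjusted p 7.87e-05). A42 had a Ct in hepatocyte replicate 2, 29.7, and in neither of the other two. With the replicate number as a block its call against both tissues was lost (3.90, adjusted p 0.0597).

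**Figure D3:**
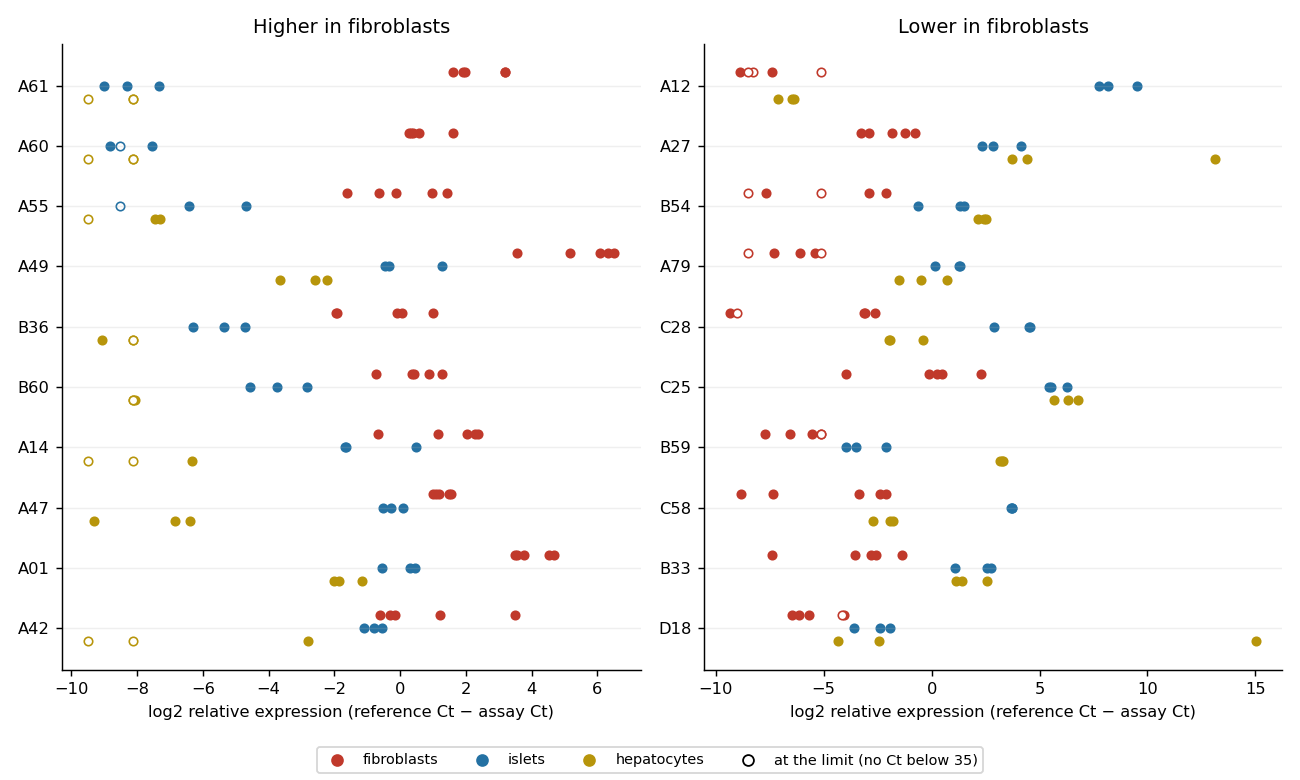
Log2 relative expression in each of the 11 samples for the 10 assays with the largest rise (left) and the 10 with the largest fall (right) in fibroblasts against both tissues; open symbols mark samples without a Ct below 35. Fibroblasts stand apart from all tissue samples at A61, A60, A55, A49, B36, B60, A47 and A01 on the left, and single hepatocyte samples lie far to the right at A27 and D18.

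Among the assays lower in fibroblasts, A79, C25 and B33 were high in both tissues alike. A79 had a Ct of 30.7, 34.1 and 29.3 in fibroblast replicates 1 to 3 and none in replicates 4 and 5. It had 24.6, 24.3 and 25.2 in islets and 27.0, 26.2 and 27.4 in hepatocytes. The closest pair of samples from the 2 sides was 3.63 apart, and the log2 difference was -6.74 (SE 0.63, limma adjusted p 4.94e-08). Between the tissues the difference was 1.34 (adjusted p 0.238). A79 was at 1.44 in iPSC and 0.93 in ESC, so that fibroblasts, at -6.49 ± 1.41 (SD, n = 5), held the lowest mean of these 5 cell types.

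C25 had a Ct of 29.2, 26.1, 23.2, 21.6 and 29.1 in fibroblasts, 20.4, 21.1 and 21.1 in islets, and 21.8, 21.4 and 23.5 in hepatocytes. Relative levels were 5.73 ± 0.45 in islets and 6.27 ± 0.54 in hepatocytes (SD, n = 3 each). The fibroblast samples were spread from -3.98 to 2.30, replicate 1 the lowest, and all lay below the tissues. The log2 difference was -6.22 (SE 1.29, limma adjusted p 0.000562). For B33 it was -5.47 (SE 1.07, adjusted p 0.000335), and again fibroblast replicate 1 was the lowest sample, at -7.42 against -3.57 to -1.36 in the others. The tissues differed by 0.53 or less in both assays, with adjusted p of 0.856 for each.

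B54 and A27 were also below every tissue sample. B54 was uneven in fibroblasts, with relative levels of -2.10, -2.90, -7.65, -8.51 and -5.14, the last 2 at the limit. Its log2 difference of -6.81 (SE 2.23, limma adjusted p 0.0186) was no longer called without fibroblast replicate 4 (adjusted p 0.0542) or without replicates 3 and 5 (0.0835). For A27 the difference was -7.11 (SE 1.24, adjusted p 9.40e-05), and it was -5.65 when an isolated Ct of 12.4 in hepatocyte replicate 1 was left out (adjusted p 6.45e-06). The other hepatocyte samples had 23.1 and 22.5, and the fibroblasts 24.4 to 32.8.

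D18 also held such a value. Its Ct was 14.7 in hepatocyte replicate 3, but 30.2 and 33.7 in the other hepatocyte samples, 28.7 to 30.9 in islets and 28.5 to 35.1 in fibroblasts. The log2 difference was -5.35 (SE 2.09, limma adjusted p 0.0468). It became -1.10 (adjusted p 0.125) without the isolated low Ct values and the reference assays that hold one. D18 lost its call under 18 of the 24 alternatives that could be fitted, but kept it when hepatocyte replicate 3 was left out as a whole.

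In A12, C28, C58 and B59 the tissues themselves differed. A12 had a Ct of 17.0, 16.0 and 18.3 in islets, 32.6, 33.3 and 33.2 in hepatocytes, and 34.2 and 30.6 in fibroblast replicates 1 and 3, with no Ct below the limit in replicates 2, 4 and 5. Its log2 difference from both tissues together was -8.56 (SE 0.75, limma adjusted p 2.44e-08). It consisted of -16.13 against islets (SE 0.91, adjusted p 2.08e-11) and -0.99 against hepatocytes (SE 0.90, adjusted p 0.393). C28 was at -9.42 against islets (SE 1.33, adjusted p 1.53e-05) and -4.00 against hepatocytes (SE 1.33, adjusted p 0.0185). C58 was at -8.52 against islets (SE 1.12, adjusted p 6.46e-06) and -2.66 against hepatocytes (SE 1.12, adjusted p 0.0547). B59 was the reverse, at -2.82 against islets (SE 0.79, adjusted p 0.00848) and -9.27 against hepatocytes (SE 0.78, adjusted p 6.09e-09).

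Set against islets alone, fibroblasts had 38 assays called higher and 69 lower of 279 tested, 13.6% and 24.7%. Medians of the called differences were 2.93 and -3.69, and the median over all assays was -0.57. Of the 69 falls, 43 had at least 1 fibroblast sample at the limit. On raw Ct 10 assays were called higher and 48 lower, and under quantile normalization 46 and 44. Without islet replicate 3 there were 21 higher, and 33 were higher and 26 lower among assays detected in every sample. Fibroblast and islet samples did not overlap at 36 assays in the upward and 58 in the downward direction, where 38.4% of all assays were called.

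After A61, A60 and A55, the next largest rise over islets was C54, at 5.69 (SE 1.83, limma adjusted p 0.0181). The Ct of C54 was 16.8 to 24.6 in fibroblasts and 23.0 and 23.1 in 2 islet samples, but 36.6 in islet replicate 1. Without that sample the difference was 1.34 (adjusted p 0.150). The call was lost under 5 of 24 alternatives, among them the fit on the 11 samples alone (0.104), the replicate block (0.166) and leaving out fibroblast replicates 3 and 5 (0.0569). A49 followed, at 5.36 (SE 0.95, adjusted p 0.000206).

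After A12, the largest falls against islets were A57, A87, C28 and B64. A57 had a Ct of 21.2, 19.9 and 19.8 in islets and 25.9 to 33.5 in fibroblasts, a log2 difference of -9.48 (SE 1.06, limma adjusted p 7.40e-07). A87 had a Ct of 22.9, 22.8 and 24.9 in islets and was below 35 in 2 of the 5 fibroblast samples, with a difference of -9.43 (SE 0.87, adjusted p 4.99e-08). Against hepatocytes these assays were at 0.43 (adjusted p 0.766) and 0.30 (adjusted p 0.804), so that the islets alone stood apart. B64 was at -8.68 (SE 2.50, adjusted p 0.00999), and at -5.05 (adjusted p 0.0807) without the Ct of 15.5 in islet replicate 1, where the other islet samples had 28.0 each.

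At 7 assays, B18, B32, B56, B68, C03, C89 and D13, every islet sample had a Ct below 35 and no fibroblast sample did. The opposite was found at 0 assays. B56 was the clearest, with a Ct of 26.6, 28.3 and 28.6 in islets and none in any fibroblast or hepatocyte sample, a log2 difference of -6.44 with the fibroblasts at the limit (SE 0.93, limma adjusted p 2.09e-05). Its iPSC and ESC samples were below 35 in 1 of 5 and 1 of 6. B68 was at -5.29 (SE 0.97, adjusted p 0.000312), B18 at -4.10 (SE 0.99, adjusted p 0.00339) and B32 at -2.92 (SE 0.95, adjusted p 0.0194). In C03, C89 and D13 the islet Ct was between 32.2 and 34.6, close to the limit, and D13 was not called (1.99 lower in fibroblasts, SE 1.33, adjusted p 0.258). The calls for C03 and C89 were lost under 13 and 11 of 23 alternatives, one reference for all letters and quantile normalization among them. With the limit at 32, B56 stayed called, whereas B68 was at -2.29 (adjusted p 0.0774), B18 at -1.10 (0.443) and B32 at 0.08 (0.949). B32 was also not called with a reference from the 11 samples (0.0666), in a fit on these samples alone (0.100) or without islet replicate 3 (0.0904).

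Set against hepatocytes alone, 73 assays were called higher and 58 lower in fibroblasts of 262 tested, 27.9% and 22.1%. Medians of the called differences were 3.53 and -3.85, and the median over all assays was 0.15. In 34 of the 73 rises at least 1 hepatocyte sample was at the limit, and in 20 not all fibroblast samples had a Ct below 35. On raw Ct 71 were higher and 20 lower. Among assays detected in every sample 37 were higher and 34 lower. Fibroblast and hepatocyte samples did not overlap at 49 assays upward and 42 downward, where 50% of all assays were called.

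The largest rises over hepatocytes were A61, A14, A60, A47 and B49. B49 had a Ct of 34.2, 35.3 and 33.8 in hepatocytes, 23.8, 24.6 and 24.3 in islets, and 23.0 to 29.02 in fibroblasts. The log2 difference was 8.67 against hepatocytes (SE 0.77, limma adjusted p 1.13e-08) and -0.58 against islets (SE 0.78, adjusted p 0.570). In iPSC its mean was -0.28 and in ESC -1.57, against 0.79 ± 1.03 in fibroblasts (SD, n = 5), so that among these cell types the hepatocytes, at -7.88 ± 0.89 (SD, n = 3), were the low ones.

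B01 was the largest fall against hepatocytes. It had a Ct of 21.1, 22.04 and 21.7 there and was below 35 in 1 of 5 fibroblast samples, at 33.6, in 0 of 3 islet samples and in 0 of the iPSC and ESC samples. The log2 difference was -13.20 (SE 0.81, limma adjusted p 5.59e-11), and with too few samples below 35 in fibroblasts and islets it was not tested between them. B59 followed with a Ct of 22.2, 23.6 and 23.7 in hepatocytes and 30.5 to 36.4 in fibroblasts. A63 had a Ct of 20.3, 17.9 and 20.7 in hepatocytes and 25.2 to 30.6 in fibroblasts, a difference of -9.15 (SE 0.76, adjusted p 5.38e-09), while against islets it was at -1.30 (SE 0.76, adjusted p 0.184).

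A64, between these in size at -9.51 (SE 2.95, limma adjusted p 0.0129), had a Ct of 3.74 in hepatocyte replicate 1 and 26.7 and 26.3 in the other hepatocyte samples. Without the low value it was at -2.33 (adjusted p 0.0482). Its call was lost under 4 of 25 alternatives, with a reference from the 11 samples (0.0561), in a fit on them alone (0.0837), with the replicate block (0.141) and without hepatocyte replicate 1 (-2.38, 0.0533). A27 likewise went from -9.10 (SE 1.49, adjusted p 5.12e-05) to -6.03 (adjusted p 7.30e-05). C24, which stood out in hepatocytes, was at -3.99 against both tissues (SE 1.11, adjusted p 0.00652) with a Ct of 11.5 in hepatocyte replicate 2, and at -2.48 (adjusted p 0.000755) without it. Its call was lost with one reference for all letters (-2.39, adjusted p 0.132), on raw Ct (-2.04, 0.312), under quantile normalization (-0.97, 0.532), in the fit on the 11 samples alone (0.0581) and with the replicate block (0.135).

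**Figure D4:**
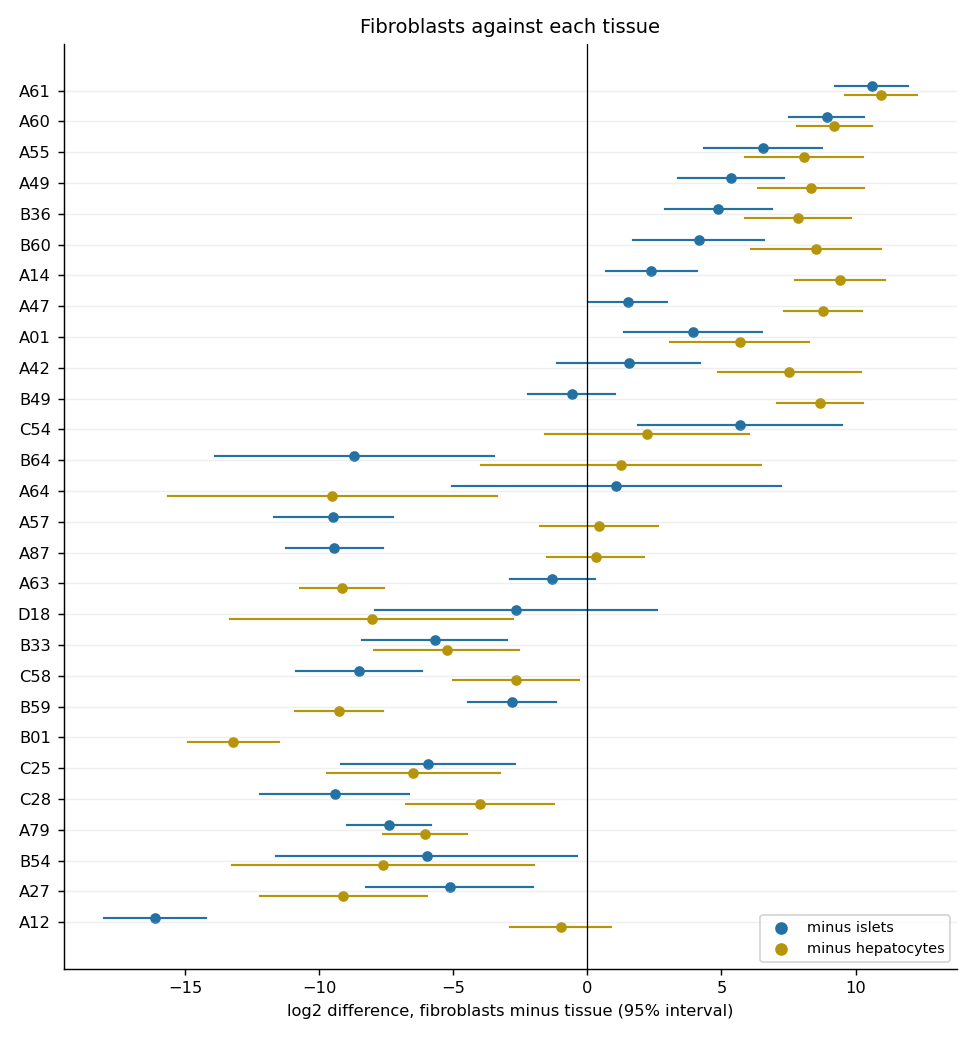
Log2 difference of fibroblasts minus islets (blue) and minus hepatocytes (yellow) with 95% intervals from the shared fit, for the assays with the largest differences, ordered by the difference from both tissues together. Both intervals lie to the right of 0 from A61 to A01, at A47 only just for islets (0.03 to 2.96), where the difference was not called. A57, A87, A12, B64 and C54 depart only from islets, and B49, A63, A64, A42 and D18 only from hepatocytes. B01 was not tested against islets. Both differences use the same fibroblast samples.

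A Ct below 35 in all 5 fibroblast samples and in no hepatocyte sample was found at 8 assays, and the opposite at 0. They were A60, A61, A88, B08, C33, C46, C48 and C84. C33 and C84 were not called, at 0.58 (adjusted p 0.550) and 0.75 (adjusted p 0.610), with values of -1.97 and -2.03 when the limit was 32, and the limit stood at -7.25 to -5.77 in the hepatocyte samples at C positions. A88 was above both tissues, at 2.17 against islets (SE 0.64, adjusted p 0.0119) and 4.59 against hepatocytes (SE 0.64, adjusted p 6.34e-06), and its level in ESC, 2.35, was higher than the -3.98 ± 0.82 of fibroblasts (SD, n = 5). B08 was at -1.75 against islets (SE 0.97, adjusted p 0.161) and 3.82 against hepatocytes (SE 0.96, adjusted p 0.00321), and the latter call was lost with the limit at 32 (1.03, adjusted p 0.361) and with the replicate block (2.77, 0.0915). C46 and C48 lay between the tissues. C46 had a Ct of 28.1 to 33.5 in fibroblasts and 27.1, 27.9 and 29.8 in islets. It was at -2.23 against islets (SE 0.54, limma adjusted p 0.00359) and at 2.56 against hepatocytes (SE 0.54, adjusted p 0.000682). Against both tissues together its difference of 0.16, with a 95% interval of -0.78 to 1.11, combined these opposite values. C48 was at -3.35 (SE 0.85, adjusted p 0.00445) and 3.14 (SE 0.84, adjusted p 0.00527). With the limit at 32, C46 was at -0.14 against hepatocytes and C48 at 0.35, and neither was called, so the size of these rises depends on where the limit is placed.

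C94 lay between the tissues in the other order, and with no sample near the limit. Its Ct was 22.9, 24.6, 20.8, 21.3 and 25.9 in fibroblasts, 25.7, 26.1 and 27.6 in islets, and 20.9, 21.3 and 22.3 in hepatocytes. The relative levels, 2.52 ± 0.75 (SD, n = 5), 0.11 ± 0.36 and 7.02 ± 0.64 (SD, n = 3 each), did not overlap. It was at 2.41 against islets (SE 0.53, limma adjusted p 0.00170) and -4.50 against hepatocytes (SE 0.52, adjusted p 6.66e-07), and at -1.04 (adjusted p 0.0614) against both together. The last value turned to 0.56 with one reference for all letters, 0.90 on raw Ct and 1.64 under quantile normalization.

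For 49 of the 278 assays the 95% interval of the difference from both tissues stayed inside a 4-fold band, 2 log2 units to either side of 0, and 0 of these 49 were called. In 19 of them the tissues differed from each other, as at C46. Of all assays tested between islets and hepatocytes 38.4% were called, a similar share. B14, an assay abundant in fibroblasts and low in pluripotent cells, was among the 49. It had a Ct of 20.3, 21.2, 18.5, 22.1 and 26.2 in fibroblasts, 20.7, 22.04 and 22.1 in islets, and 21.6, 22.4 and 22.1 in hepatocytes. Its difference was 0.47 (95% interval -0.90 to 1.84, limma adjusted p 0.577), with relative levels of 4.67 ± 0.71 (SD, n = 5), 3.998 ± 0.46 and 4.41 ± 0.42 (SD, n = 3 each), while iPSC were at -1.29 and ESC at -1.74. B13 was similar in level, at 5.66 ± 1.11 (SD, n = 5), 4.21 ± 0.25 and 5.13 ± 0.59 (SD, n = 3 each). Its difference of 0.98 had an interval of -1.40 to 3.37, which does not place it within a 4-fold band. This interval is from the shared fit, which takes in the iPSC, where 4 of 5 samples were below 35 and the SD of B13 was 3.68. A44, at 3.11 (SE 1.45, adjusted p 0.0908), was not called, with fibroblast replicate 4 at 0.42 and the others at 3.30 to 5.50. It was called under 6 of 25 alternatives, with adjusted p of 0.0103 to 0.0370. Among these was the fit on the 11 samples alone (3.11, adjusted p 0.0140). The main fit shares its spread with the pluripotent cells, where the SD of A44 was 2.74 in iPSC and 3.86 in ESC. In fibroblasts, islets and hepatocytes the SD was 1.86, 0.80 and 0.92. B74 and B77, abundant in pluripotent cells at relative levels of 9.85 and 9.18 in iPSC, were below 35 in at most 2 fibroblast, 1 islet and 1 hepatocyte sample each, and were not tested here.

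The fibroblast samples were not uniform. Replicate 5 was more than 2 above every other fibroblast sample at 87 assays, and in 72 of these it was at the limit, which stands at -5.14 for A and B positions in that sample, against -11.82 in replicate 3. Without replicate 5 the counts against both tissues were 53 higher and 81 lower. In 4 assays, A57, C06, C28 and C58, replicates 1 and 2 were more than 2 below replicates 3, 4 and 5. C28 had relative levels of -9.33, -9.03, -3.10, -2.64 and -3.11, and C06 of -8.23, -9.03, -3.43, -3.28 and -4.72. C58 had -8.81, -7.34, -3.35, -2.10 and -2.38, and A57 had -7.12, -6.77, -2.74, -1.33 and -2.85. All 4 were high in islets, at 3.98, 2.48, 3.72 and 5.32 in the same order. The opposite division, replicates 1 and 2 above the rest, was seen at 7 assays, B54 among them. These assays were picked by their values and were not tested.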

How the data were processed

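The labels' protocols describe 303 microRNA assays, fewer than the 315 positions listed, each run on 5 ng of RNA over 40 PCR cycles. All positions were treated as microRNA assays. The deposited table holds raw Ct values, in cycles, and no source used here names the software or thresholds behind them. In the 11 samples 493 of 3465 values (14.2%) are empty and 31 are exactly 36. The authors normalized to RNU6. Their deposited fold changes were not used, since they compare fibroblasts only with iPSC and islets only with hepatocytes, which leaves RNU6 of fibroblasts and of the tissues on separate scales.

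Of the reference assays 87 were at A or B positions, 26 at C and 9 at D. Of the 40 isolated low Ct values, 17 lay in reference assays. The alternative without such values left out all of them at once, and by the same rule those in iPSC and ESC. Every reference assay that held one in any of these groups was left out too. Groups were fitted by limma 3.58.1 in R 4.3.3 on all 26 samples, with the 2 activin-treated samples of a clone averaged (24 columns, 7 groups), so that all groups shared the estimate of the spread. Contrasts were fibroblasts minus the mean of both tissues, and minus each tissue. P-values were adjusted by Benjamini-Hochberg over the assays tested. Named are the 10 largest rises and falls against both tissues and the 5 against each tissue, among assays called and below 35 in all samples of the higher side, the assays below 35 in all samples of one side and none of the other, and 10 assays that earlier results single out. The members and lists were chosen with earlier results of these data known. Marker microRNA lists were not used, since positions have no names.

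Same-numbered samples were checked for pairing by the correlation of their deviations from group means, which was -0.27 to 0.11 for fibroblasts with islets and -0.09 to 0.07 with hepatocytes. Fibroblasts were therefore not taken as paired with the tissues. For islets with hepatocytes it was 0.11 to 0.16. Tested on simulated data (315 assays, 60 changed, 10 runs), the fit recovered 80.3% of 16-fold and 34.3% of 4-fold changes against both tissues, 71.3% and 24.3% against islets, and 66.7% and 21.3% against hepatocytes. In these runs it called at most 0.706% of unchanged assays. Its rate of recovery and of false calls on the measured Ct, with the limit and the isolated low Ct values, was not tested. Python 3.11.15, pandas 2.3.3, scipy 1.17.1 and matplotlib 3.10.9 were used for tables, permutation tests and plots.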

Additional observations from a re-analysis of the deposited data

Results flagged for a closer look

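Fibroblast replicate 3 stood apart from the other 4 at A60, at a relative level of 1.60, with a gap to the nearest sample of 0.778 of the range of the group, and at C54, at 6.84, with a gap of 0.763. A flag of this kind is raised by chance in about 1 of 20 groups, and no adjustment was made for the number of groups searched.

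At 26 named assays the difference of fibroblasts from hepatocytes was not the same as that from islets. The test was of the islet minus hepatocyte difference in the same limma fit, which called 38.4% of all assays tested. Many of the 26 were named for a large difference or for detection against islets or hepatocytes alone, so the count partly follows from their selection. Islets were above hepatocytes by 2.99 at A49, 2.97 at B36, 4.39 at B60, 7.03 at A14, 7.28 at A47, 5.98 at A42 and 9.25 at B49, assays in which fibroblasts were higher than hepatocytes. They were above by 15.13 at A12, 5.42 at C28, 5.86 at C58, 9.91 at A57, 9.74 at A87 and 9.94 at B64, assays in which fibroblasts were lower than islets. The difference was 3.83 at B18, 6.34 at B56, 5.18 at B68, 2.42 at A88, 5.58 at B08, 4.78 at C46 and 6.49 at C48, where a group had no Ct below 35. Hepatocytes were the higher tissue at B59 (-6.45), B01 (-14.20), A64 (-10.58), A63 (-7.85), C94 (-6.90) and C24 (-6.44).

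The deviations of same-numbered islet and hepatocyte samples correlated only weakly, at 0.11 to 0.16, and the labels give no pairing. In a fit on the 11 samples alone 24 of the 26 were called, all but A64 (limma adjusted p 0.0981) and B18 (0.0585). With the replicate number as a block in that fit 23 were called, all but A49 (0.0752, against 0.0288 without the block), A64 (0.149) and A88 (0.0517, against 0.0314). Without the isolated low Ct values 25 of the 26 were called, all but B64 (5.87, adjusted p 0.0666). The difference fell in size to -3.27 at A64 (adjusted p 0.0158) and to -3.48 at C24 (0.000974).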

How the results depend on the processing

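On raw Ct 42 assays were lower than both tissues, 10 higher than islets and 20 lower than hepatocytes, and 6 and 9 lay wholly above and below the tissues. Quantile normalization gave 44 lower than islets. Against the main scaling, quantile normalization moved the median of all assays by 0.30 (both tissues), 0.70 (islets) and -0.13 (hepatocytes), and raw Ct by 0.32, -0.02 and 0.94. With the limit at 32, 45 assays were lower than both tissues and 47 higher than hepatocytes. Among assays detected in every sample 30 were lower than both tissues, 26 lower than islets, and 37 higher and 34 lower than hepatocytes. Without fibroblast replicates 3 and 5, an alternative added after seeing the data like those on isolated and empty values, 36 assays lay wholly below the tissues. Leaving out samples can only keep or raise that count.

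With the replicate number as a block, in a fit on the 11 samples, 36 were higher and 68 lower than both tissues, 18 and 46 against islets, and 52 and 49 against hepatocytes.

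Leaving out 1 sample at a time gave 40 to 53 higher and 57 to 81 lower than both tissues, 21 to 41 and 58 to 81 against islets, and 51 to 76 and 50 to 72 against hepatocytes. The difference in assays below Ct 35 was -13.1 to 8.17 against both tissues, with 8.17 without fibroblast replicate 5 and 1.60, 0.40 and 0.60 without islet replicates 1, 2 and 3 when the remaining tissue samples were pooled. With each tissue weighted equally it was -3.62, -5.12 and -4.87 without those islet samples. It was -40.1 to -18.8 against islets and 13.9 to 35.2 against hepatocytes, and counting Ct below 32 it was 3.17 against both. Of 1438 values for named assays under the alternatives, 1342 kept their direction and side of the threshold, 69 lost and 18 gained a call, and 9 reversed. With the limit at 32 these were B32 against islets (0.079) and C46 (-0.14), C33 (-1.97) and C84 (-2.03) against hepatocytes, and with the replicate block C84 (-0.043). Against both tissues B14 was at -0.19 with one reference, and C94 at 0.56 with one reference, 0.90 on raw Ct and 1.64 under quantile normalization. Of the 9, B32 and C46 had been called. Where no value is given for why a count moved, the cause was not tested. Scaling to RNU6 was not run. Depth is unknown for Ct values, and the limit bounds what a low sample can show.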
